A study of Mus musculus with 6 samples.

Results

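Aminoacyl-tRNA synthetases are the enzymes that attach each amino acid to its own tRNA, the step that supplies ribosomes with building blocks. The genes followed here are 39 of the 22651 genes in the mRNA-sequencing tables, chosen by symbol, and all 39 were found in all 6 samples. They comprise 20 genes of cytosolic synthetases, 16 genes of mitochondrial synthetases (symbols that end in 2) and 3 scaffold genes, Aimp1, Aimp2 and Eef1e1, which encode the non-enzymatic proteins of the multisynthetase complex. The samples were telencephalon (cortex and striatum of the forebrain), taken at postnatal day 0 from WT mice (n = 3) and TSC1 mice (n = 3). The TSC1 mice were TSC1 flox/flox;Emx1-cre/+, and the WT mice were TSC1 flox/flox;Emx1 +/+ littermates, so that every animal carried 2 floxed copies of Tsc1 and WT lacked only Cre. Tsc1 encodes a subunit of the complex that restrains mTOR kinase signaling. Cre expressed from Emx1 acts in the embryonic dorsal cortex, so that the dissected tissue also holds cells whose Tsc1 was not deleted. Expression is given as TPM, a relative transcript abundance corrected for gene length, and differences as the log2 fold change of TSC1 compared to WT from edgeR's quasi-likelihood test on the read counts. A gene was called a differentially expressed gene (DEG) at a Benjamini-Hochberg adjusted p below 0.05 over the 13969 genes tested, a set that held all 39 synthetase and scaffold genes.

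Cytosol and mitochondria run separate translation systems, and most amino acids have a nuclear synthetase gene for each. In mammals the glycyl and lysyl enzymes of both compartments come from Gars and Kars. Some cytosolic enzymes gather with the scaffold proteins in the multisynthetase complex while the rest stay free. Many cytosolic synthetase genes are known targets of ATF4, a transcription factor of the amino acid response whose translation is raised by mTOR signaling and by amino acid shortage.

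Of the cytosolic genes, 8 were DEGs, and all of them were higher in TSC1. The promoters of 3 of these, Gars and Tars among them, held the letters TGATGNAA, the core of the C/EBP-ATF response element to which ATF4 binds, within 250 bases before the start site. Each stretch below is printed 5′ to 3′ on the strand of the gene, from the RefSeq promoters of GRCm38.p6, with the motif in capitals. In both of them the motif reads on the opposite strand, so that the capitals are its reverse complement.
Gars, chr6:55037931-55038000, plus strand: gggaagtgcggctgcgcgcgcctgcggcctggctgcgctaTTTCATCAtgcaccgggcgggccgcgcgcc
Tars, chr15:11399659-11399713, minus strand: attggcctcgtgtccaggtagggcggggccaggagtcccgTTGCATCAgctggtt
The motif ended 22 bases before the RefSeq start of Gars and 7 bases before that of Tars. In GENCODE, which gives the gene positions below, Gars begins 6 bases after the RefSeq start and Tars 7 bases before it. Of the 39 genes, 30 had a promoter in the RefSeq table, and the motif was searched on both strands. It was present in 3 of the 5 DEGs with a promoter, in 0 of 8 other cytosolic genes, in 0 of 14 mitochondrial genes and in 0 of 3 scaffold genes. Over all 32851 promoters of the same length, 3.45% held it. The palindrome CACGTG, the E-box bound by MYC and TFEB family factors, was present in 3 of the 30 promoters and in 6.02% of all promoters. A match of letters is a description of the sequence and not a site of binding.

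The cytosolic synthetase mRNAs as a group were higher in TSC1 telencephalon, compared to WT. The summed TPM of the 20 genes was 2259, 2271 and 2321 TPM in the WT mice and 3099, 3048 and 3257 TPM in the TSC1 mice (replicates 1, 2 and 3, the order used throughout), a ratio of the means of 1.37. The groups did not overlap. Of the 20 genes, 8 (40%) were DEGs with higher expression and 0 with lower expression, while 0.859% of all tested genes were called higher and 0.659% lower. At an unadjusted p below 0.05, 13 of the 20 were higher and 0 lower, while 9.04% of all tested genes were higher and 8.93% lower at that threshold. DESeq2 called none of the 20 lower, and 2.29% of all genes. In WT the 8 DEGs summed to 980.3 ± 23.7 TPM (SD, n = 3), and in TSC1 to 1666 ± 70.4 TPM (SD, n = 3). The other 12 genes summed to 1303 ± 15.3 TPM in WT (SD, n = 3), and in TSC1 to 1469 ± 41.8 TPM (SD, n = 3), and for them too the groups did not overlap. The DEGs were chosen by this same difference, so the unequal sums are a description only. The median log2 fold change was 0.31 over the 20 cytosolic genes, 0.05 over the 16 mitochondrial genes and 0.04 over the 3 scaffold genes, beside -0.0027 over all genes tested. In bulk tissue, fewer cells of a type and less RNA per cell cannot be told apart.

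**Figure D1:**
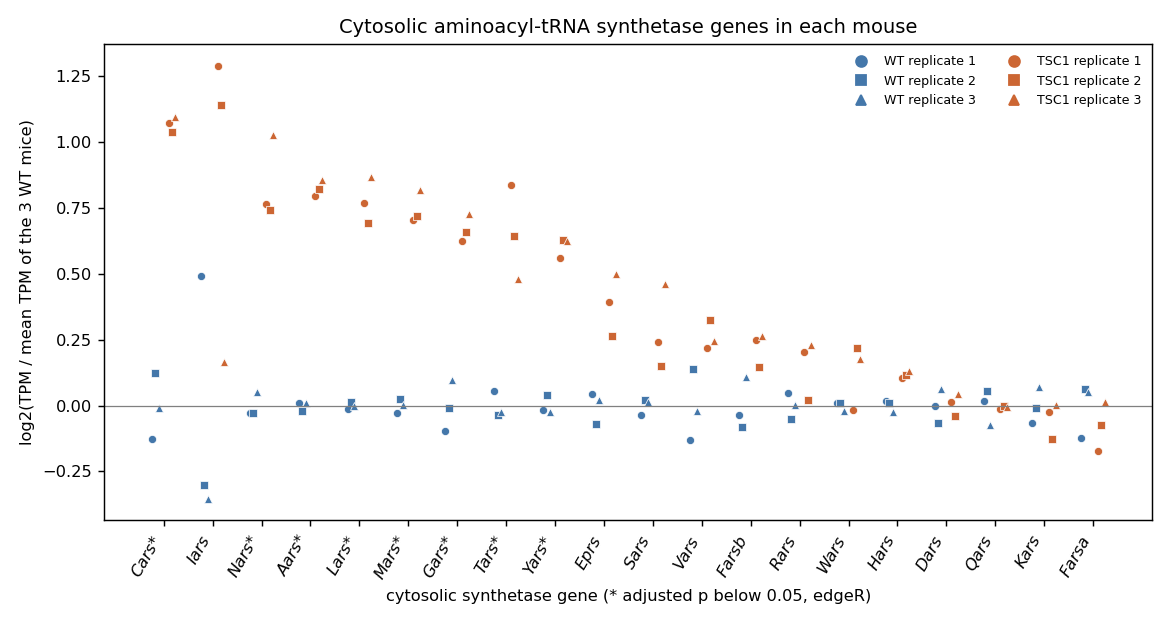
Expression of the 20 cytosolic synthetase genes in each of 6 mice, as log2 of TPM over the mean TPM of the 3 WT mice (blue, WT; orange, TSC1; circle, square and triangle for replicates 1, 2 and 3; an asterisk marks an edgeR adjusted p below 0.05). The 3 TSC1 points of each marked gene lie above its 3 WT points, whereas the points of Iars spread widely within both groups and those of Dars, Qars, Kars and Farsa lie around 0.

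Of the 8 DEGs, Cars had the largest fold change. Cars (chr7:143557230-143600090 in mm10, minus strand) encodes the cysteinyl enzyme, whose expression was 55.5, 66.1 and 60.3 TPM in WT and 127.6, 124.6 and 129.7 TPM in TSC1. The TSC1 values lay close together and above all WT values, and the log2 fold change was 1.04 (SE 0.0856, edgeR adjusted p = 0.00112).

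Nars (chr18:64499647-64516652, minus strand), the gene of the asparaginyl enzyme, was the most abundant of the 39 mRNAs, at 231.0, 230.9 and 244.0 TPM in WT and 400.4, 394.0 and 480.2 TPM in TSC1. TSC1 replicate 3 was the highest sample, and the groups were apart by a log2 fold change of 0.82 (SE 0.0936, edgeR adjusted p = 0.00511). Asns, which encodes the enzyme that makes the asparagine used by Nars, was a DEG as well, at 92.0, 92.0 and 111.0 TPM in WT and 275.8, 272.5 and 325.1 TPM in TSC1. The log2 fold change of Asns was 1.54 (SE 0.114, edgeR adjusted p = 0.000846), and TSC1 replicate 3 was again the highest sample.

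Aars (chr8:111033144-111057664, plus strand), which encodes the alanyl enzyme, had the smallest spread of the DEGs relative to its change. Its expression was 114.4, 111.9 and 114.2 TPM in WT and 197.2, 201.0 and 205.7 TPM in TSC1, and no sample departed from its group. Its log2 fold change was 0.80 (SE 0.0613, edgeR adjusted p = 0.000846). Aars shares 1326 exon bases (23.1%) with Exosc6, a gene of the RNA exosome on the same strand, and the reads of both were divided by RSEM into fractional counts. Exosc6 had a log2 fold change of -0.04 (edgeR adjusted p = 0.898).

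Lars (chr18:42202298-42262194, minus strand) and Mars (chr10:127296221-127311786, minus strand) encode the leucyl and methionyl enzymes of the multisynthetase complex. Lars was at 70.1, 71.3 and 70.6 TPM in WT and at 120.5, 114.2 and 128.9 TPM in TSC1, for a log2 fold change of 0.75 (SE 0.0722, edgeR adjusted p = 0.00262). Mars was at 62.3, 64.7 and 63.7 TPM in WT and at 103.5, 104.6 and 112.3 TPM in TSC1, for a log2 fold change of 0.72 (SE 0.0748, edgeR adjusted p = 0.00348). For both genes the WT mice were nearly alike and every TSC1 mouse was above them. Mars shares 68 exon bases (2.29%) with Ddit3 on the opposite strand, and the library kit kept no strand.

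Gars (chr6:55038007-55079500, plus strand), the source of the glycyl enzyme of cytosol and mitochondria, was second to Nars in abundance. It was at 217.5, 231.5 and 249.4 TPM in WT and at 359.2, 367.8 and 385.0 TPM in TSC1, without overlap. The log2 fold change was 0.64 (SE 0.0821, edgeR adjusted p = 0.0104). Its adjusted p was 0.0708 without WT replicate 2 and 0.0653 without TSC1 replicate 2.

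Tars (chr15:11382301-11399665, minus strand), which encodes the threonyl enzyme, was at 65.9, 61.8 and 62.3 TPM in WT and at 113.1, 99.0 and 88.4 TPM in TSC1. Relative to their mean, the TSC1 mice differed more among themselves than for the other DEGs, and all lay above WT, with a log2 fold change of 0.63 (SE 0.0871, edgeR adjusted p = 0.0159). The call was lost without WT replicate 2, WT replicate 3, TSC1 replicate 1 or TSC1 replicate 2, at adjusted p between 0.0689 and 0.106.

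Yars (chr4:129189760-129219607, plus strand), which encodes the tyrosyl enzyme, had the smallest fold change among the 8. It was at 138.9, 144.5 and 138.2 TPM in WT and at 207.0, 217.0 and 217.0 TPM in TSC1. The groups were well separated, and the log2 fold change was 0.58 (SE 0.0648, edgeR adjusted p = 0.00511).

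Among the 12 cytosolic genes that were not called, Iars and Eprs stood nearest to the DEGs. Iars, the gene of the isoleucyl enzyme, was at 47.7, 27.5 and 26.5 TPM in WT and at 83.0, 74.9 and 38.1 TPM in TSC1. TSC1 replicate 3 lay below WT replicate 1, so the groups overlapped, and the log2 fold change of 0.92 had an SE of 0.283 and an edgeR adjusted p of 0.134. Without TSC1 replicate 3 the log2 fold change was 1.19 and Iars was called, as 1 of 9 cytosolic genes, against 2.61% of all genes called higher in that fit.

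Eprs, whose product charges both glutamyl and prolyl tRNAs, was at 156.3, 144.3 and 153.7 TPM in WT and at 198.9, 182.0 and 213.9 TPM in TSC1. The groups did not overlap, but the log2 fold change of 0.36 (SE 0.0760) had an edgeR adjusted p of 0.0540 and missed the threshold. DESeq2 on the same counts called Eprs and the 8 DEGs, 9 of 20 cytosolic genes, against 2.58% of all genes called higher.

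The other 10 cytosolic genes had log2 fold changes between -0.11 and 0.26, with edgeR adjusted p from 0.176 to 0.901. Sars (0.26), Vars (0.23), Farsb (0.19) and Hars (0.09), for the seryl, valyl, phenylalanyl and histidyl enzymes, had all TSC1 values above all WT values in TPM. The groups of Rars (0.13), Wars (0.10), Dars (-0.02), Qars (-0.03), Kars (-0.08) and Farsa (-0.11) overlapped. Farsa and Farsb encode the subunits of a single phenylalanyl enzyme, and Farsa was at 81.0, 92.1 and 91.4 TPM in WT and at 78.3, 83.8 and 89.1 TPM in TSC1. In all, 13 of the 20 genes (65%) had the TPM of every TSC1 mouse above that of every WT mouse, and none had it below, while 12.3% of tested genes lay above in this way and 10.3% below.

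**Figure D2:**
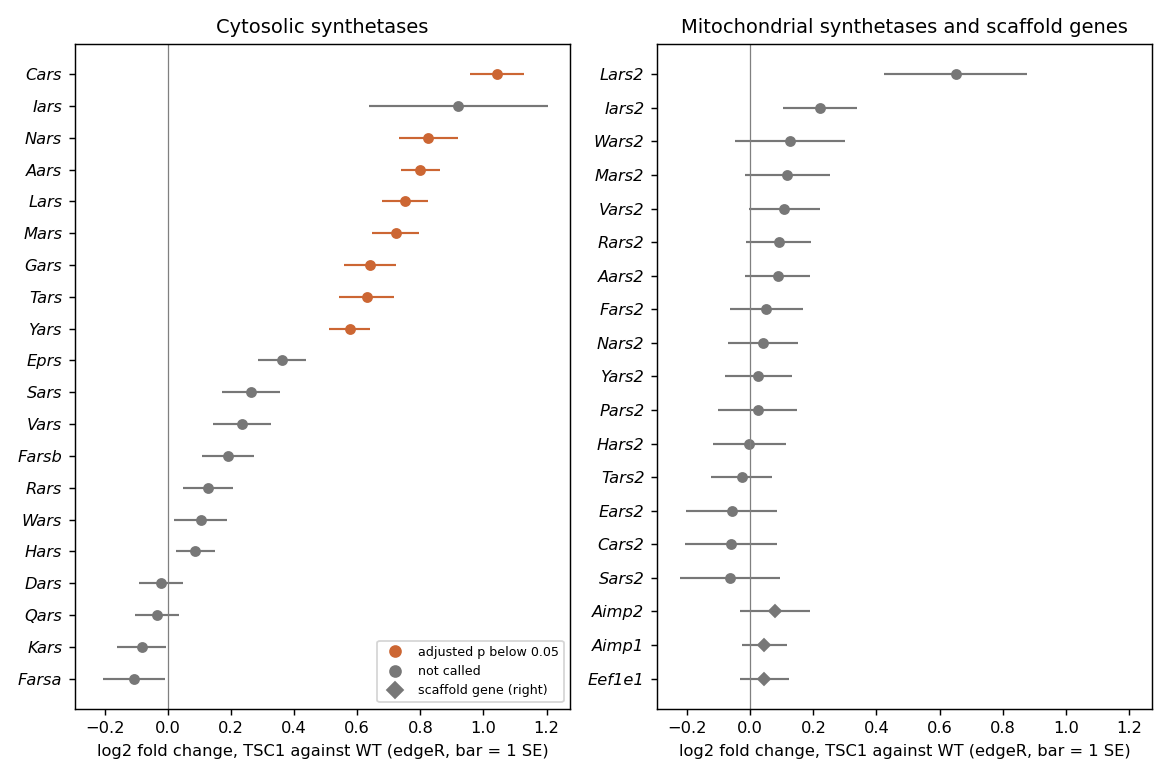
Log2 fold change of TSC1 against WT for the 20 cytosolic genes (left) and for the 16 mitochondrial and 3 scaffold genes (right, scaffold genes as diamonds), each from edgeR with a bar of 1 SE either side; orange marks an adjusted p below 0.05. The 8 orange genes run from 0.58 for Yars to 1.04 for Cars, and on the right only Lars2 lies above 0.22.

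DEGs were found among both the complex-bound and the free enzymes, and in both structural classes of synthetase. Of 8 genes whose products reside in the multisynthetase complex, 2 were DEGs (Lars and Mars), and the median log2 fold change was 0.24. Of the 12 genes of free enzymes, 6 were DEGs (Aars, Cars, Gars, Nars, Tars and Yars), with a median of 0.42. By the fold of the catalytic domain, class I had 4 DEGs among 10 genes (Cars, Lars, Mars and Yars), with a median of 0.47, and class II had 4 among 10 (Aars, Gars, Nars and Tars), with a median of 0.23. The share called higher was 25% of the complex-bound genes, 50% of the free ones and 40% of each class, beside 0.859% of all tested genes. None was called lower, beside 0.659% of all tested genes. No test between these groups was made, since genes that share libraries are not replicates.

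The scaffold genes of the complex showed no DEG by edgeR or DESeq2, and 0 of 3 had an unadjusted p below 0.05. Of all tested genes, edgeR called 0.859% higher and 0.659% lower, and DESeq2 2.58% and 2.29%. At the unadjusted threshold, 9.04% were higher and 8.93% lower, so 0 of 3 genes is near these shares. Aimp1 was at 162.1, 160.0 and 162.3 TPM in WT and at 181.0, 165.2 and 166.3 TPM in TSC1, for a log2 fold change of 0.04 (SE 0.0706, edgeR adjusted p = 0.778). Aimp2 was at 66.7, 61.3 and 55.9 TPM in WT and at 69.1, 72.7 and 57.3 TPM in TSC1, for a log2 fold change of 0.08 (SE 0.111, edgeR adjusted p = 0.750). Eef1e1 was at 182.3, 191.3 and 195.6 TPM in WT and at 195.7, 202.3 and 204.1 TPM in TSC1, for a log2 fold change of 0.04 (SE 0.0776, edgeR adjusted p = 0.804). Aimp1 and Eef1e1, 2 of the 3, had all TSC1 values just above all WT values in TPM, beside 12.3% of all tested genes. The groups of Aimp2 overlapped. The estimates with 2 SE either side lay between -0.144 and 0.301, below the log2 fold change of Lars and Mars, whose enzymes sit on these scaffolds. Of Aimp2 exon bases, 40.8% are shared with Eif2ak1 on the opposite strand, so its reads are the least certain of the 3.

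No mitochondrial synthetase gene was a DEG, and 1 of the 16 had an unadjusted p below 0.05, beside 13 of the 20 cytosolic genes. DESeq2 called none of the 16. Of all tested genes, edgeR called 0.859% higher and 0.659% lower, and DESeq2 2.58% and 2.29%, so 0 calls among 16 genes is near these shares. At the unadjusted threshold, 9.04% of all tested genes were higher and 8.93% lower. With Lars2 set aside, the 15 genes had log2 fold changes from -0.06 to 0.22, with a median of 0.04, and their estimates with 2 SE either side lay between -0.382 and 0.477. This range ended below the estimate for Yars, 0.58, the smallest of a called cytosolic gene. It did not end below the Yars estimate less 2 SE, 0.447. The range of Lars2, set aside here, was 0.199 to 1.10. In WT the 15 genes summed to 288.4 ± 5.58 TPM (SD, n = 3), and in TSC1 to 307.3 ± 15.5 TPM (SD, n = 3), with TSC1 replicate 3 below WT replicate 1. In TPM, 2 of the 16 genes (12.5%), Aars2 and Pars2, had all TSC1 mice above all WT mice, a share near the 12.3% of all genes tested.

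Sars2, the gene of the mitochondrial seryl enzyme, had the lowest log2 fold change. It was at 10.4, 13.1 and 10.6 TPM in WT and at 10.2, 12.3 and 10.9 TPM in TSC1, with an overlap of the groups and a log2 fold change of -0.06 (SE 0.159, edgeR adjusted p = 0.864). Iars2, for the isoleucyl enzyme, had the highest value apart from Lars2, at 45.9, 35.6 and 35.2 TPM in WT and 53.1, 45.2 and 40.2 TPM in TSC1. Its log2 fold change was 0.22 (SE 0.118, edgeR adjusted p = 0.364), and 30.5% of its exon bases are shared with Rab3gap2 on the opposite strand.

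Lars2, the gene of the mitochondrial leucyl enzyme, was the most abundant mitochondrial synthetase mRNA and the most variable. It was at 161.4, 106.6 and 95.4 TPM in WT and at 184.5, 256.0 and 138.4 TPM in TSC1. The groups overlapped, and the log2 fold change was 0.65 (SE 0.226, edgeR adjusted p = 0.178). Without TSC1 replicate 3 it was 0.84, and Lars2 was then called.

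Iars and Lars2 ordered the samples nearly alike, and so did Rn45s, the 45S pre-ribosomal RNA. Rn45s was at 705.1, 272.6 and 238.2 TPM in WT and at 995.5, 1328 and 334.8 TPM in TSC1, for a log2 fold change of 1.11 (SE 0.496, edgeR adjusted p = 0.279). From the lowest to the highest, both Lars2 and Rn45s ran WT replicate 3, WT replicate 2, TSC1 replicate 3, WT replicate 1, TSC1 replicate 1 and TSC1 replicate 2. The order of Iars differed only in the exchange of the highest pair. Rn45s was added after its values were seen, and its part in the values of Iars and Lars2 was not tested. Over all genes, WT replicate 1 and TSC1 replicate 3 also stood between the rest, at -7.43 and -3.95 on the first principal component (47.7% of the variance). The other WT samples were at -19.1 and -26.3, and the other TSC1 samples at 26.5 and 30.3. On the second principal component (19.2% of the variance), WT replicate 1 was the highest sample at 26.1 and TSC1 replicate 3 the lowest at -18.0. Without these 2 samples all 8 DEGs were called, together with Eprs and Iars as higher and Farsa as lower, and Lars2 and Iars2 were called higher among the mitochondrial genes, in a fit that called 13.6% of all genes higher and 9.82% lower.

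**Figure D3:**
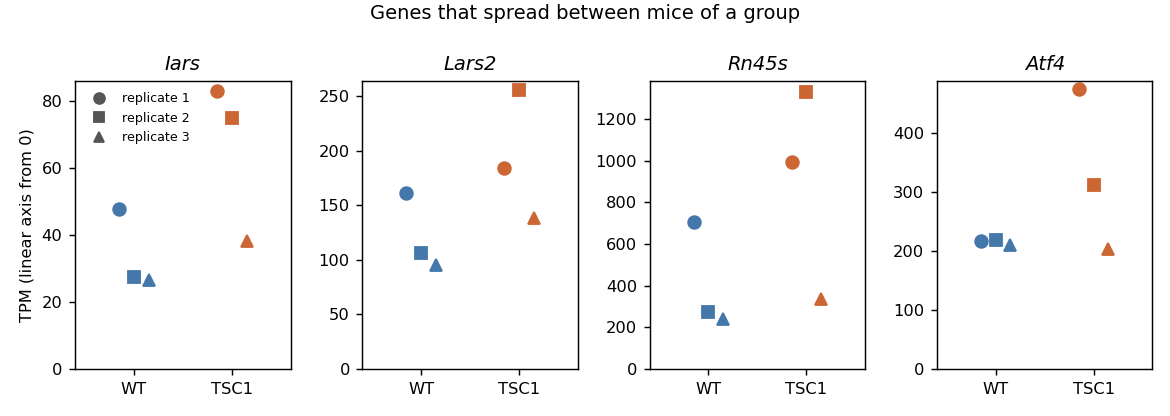
TPM of Iars, Lars2, Rn45s and Atf4 in each mouse (blue, WT; orange, TSC1; circle, square and triangle for replicates 1, 2 and 3; each axis is linear and starts at 0). For Iars, Lars2 and Rn45s, WT replicate 1 lies above TSC1 replicate 3, and for Atf4 TSC1 replicate 3 lies below all WT mice.

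Setting each cytosolic mRNA beside the mitochondrial mRNA for the same amino acid, within each mouse, gives a ratio that no scaling between libraries can change. Eprs was set beside both Ears2 and Pars2, and Farsa, not Farsb, beside Fars2. Of 16 such pairs, 6 had the ratio of every TSC1 mouse above that of every WT mouse, and none had it below. The share of other gene pairs that would lie apart in this way was not computed. The calls came from the same mice, so the ratios describe the size of the shift and are no separate support for it. Cars over Cars2 went from 2.32-fold in WT to 4.93-fold in TSC1, a log2 difference of 1.09 ± 0.0768 (SE, n = 3 per group). Nars over Nars2 went from 21.8-fold to 37.4-fold, a log2 difference of 0.78 ± 0.109 (SE, n = 3 per group). Aars over Aars2 went from 7.77-fold to 12.7-fold, with a log2 difference of 0.71 ± 0.0718 (SE, n = 3 per group).

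The ratios of the remaining 3 pairs moved by somewhat less. Tars over Tars2 differed by 0.65 ± 0.124 on the log2 scale (SE, n = 3 per group), Mars over Mars2 by 0.61 ± 0.164 and Yars over Yars2 by 0.55 ± 0.0909. Lars over Lars2, whose cytosolic member was also a DEG, was 0.599-fold in WT and 0.647-fold in TSC1, the groups overlapped, and the log2 difference was 0.11 ± 0.387 (SE, n = 3 per group), with the spread of Lars2 in it. In the remaining 9 pairs the groups overlapped.

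**Figure D4:**
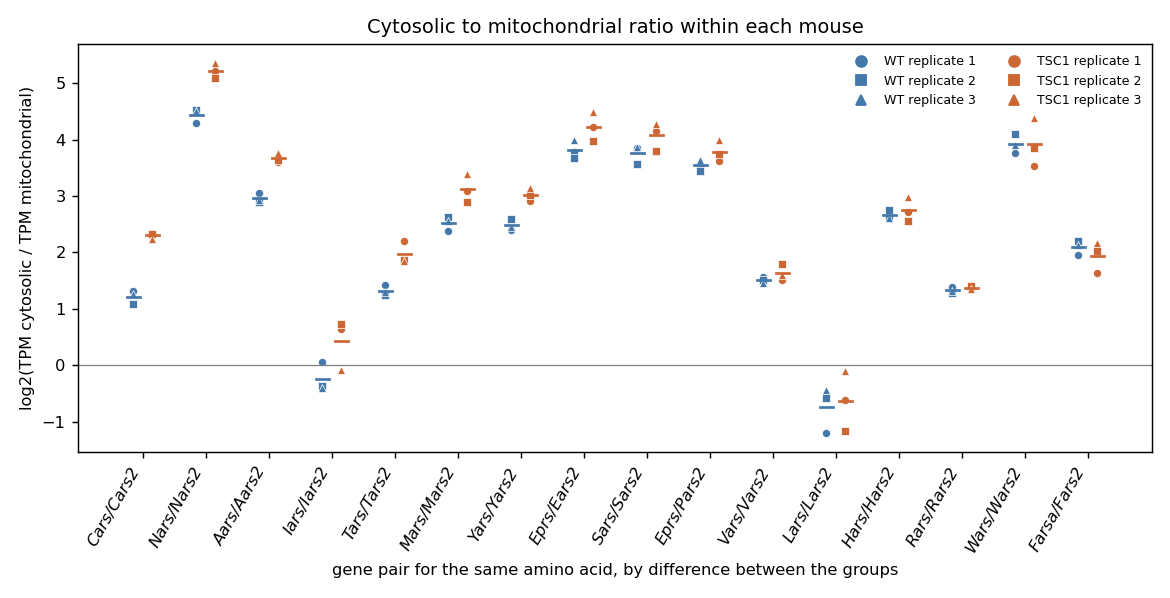
Log2 ratio of cytosolic to mitochondrial TPM for 16 gene pairs within each mouse, ordered by the difference between the groups (blue, WT; orange, TSC1; bars, group means). The TSC1 points lie above the WT points without overlap for the pairs of Cars, Nars, Aars, Tars, Mars and Yars, and Lars2 exceeds Lars in every mouse.

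In abundance, cytosolic synthetase mRNAs ranged from 33.9 TPM (Iars) to 235.3 TPM (Nars) in the mean of WT, and mitochondrial ones from 6.50 TPM (Wars2) to 121.1 TPM (Lars2). In WT, Nars and Gars led and overlapped each other, followed by Eef1e1 at 189.7 TPM, Aimp1 at 161.5 TPM and then a run of Sars, Eprs, Kars, Hars, Dars and Yars from 153.7 to 140.5 TPM, in which no neighbours were apart. In TSC1, Nars at 424.9 TPM and Gars at 370.7 TPM were apart from each other, and Yars at 213.7 TPM and Aars at 201.3 TPM came next, and Aars and Eef1e1 at 200.7 TPM overlapped. Yars had been in the tenth place in WT and Aars in the thirteenth. Counts per gene and sample ran from 614 to 7296 for cytosolic genes, from 323 to 1251 for scaffold genes and from 92 to 5023 for mitochondrial genes, so the mitochondrial estimates rest on fewer reads.

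Other genes around tRNA charging showed no DEG. Of 20 genes of tRNA processing, editing, export and delivery, 0 were called by edgeR, near the 0.859% of all tested genes called higher and 0.659% lower. At an unadjusted edgeR p below 0.05 there were 3 (1 higher and 2 lower), beside 9.04% of all tested genes higher and 8.93% lower. The median log2 fold change was -0.07. DESeq2 called 1 of the 20, as higher, beside 2.58% of all genes. That gene, Xpot, which encodes the tRNA exporter of the nucleus, was at 49.5, 49.4 and 48.9 TPM in WT and at 63.8, 67.9 and 83.2 TPM in TSC1. All TSC1 values were higher, and the log2 fold change of 0.52 (SE 0.105) had an edgeR adjusted p of 0.0509 and a DESeq2 adjusted p of 0.000731. Eef1a1, which carries charged tRNAs to the ribosome, had a log2 fold change of -0.22 (edgeR adjusted p = 0.189), and Trnt1, which adds the CCA end, had 0.10 (edgeR adjusted p = 0.518).

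Genes known as ATF4 targets outside the synthetase family included many that were higher in TSC1. Of 27 genes in a list of Atf4 and its targets, 15 (55.6%) were DEGs with higher expression and 0 with lower expression, and the median log2 fold change was 0.87. The share of all tested genes called higher was 0.859%. DESeq2 called 19 higher and 1 lower, beside 2.58% and 2.29% of all genes. At an unadjusted edgeR p below 0.05, with 9.04% of all genes higher and 8.93% lower, 22 were higher and 1 was lower, the glutamine carrier gene Slc1a5 (-0.82, edgeR adjusted p = 0.0646). They included enzymes of serine and one-carbon metabolism, namely Psph (1.42), Shmt2 (1.25), Mthfd2 (1.69) and Aldh1l2 (0.82). Among amino acid transporters, Slc7a5, a carrier of large neutral amino acids, was called at 0.99, and Slc7a3, a carrier of cationic amino acids, at 3.78. Sesn2 (2.56), Ddit4 (0.97) and Eif4ebp1 (2.33), whose products restrain mTOR signaling or cap-dependent translation, were called as well. Slc7a11, the cystine carrier, had a log2 fold change of -0.12 (edgeR adjusted p = 0.823). The list was drawn up with earlier results of these mice known and is no independent evidence of a direction. Without WT replicate 2, 8 of its genes were called, all higher, beside 24 called higher of all 14073 genes tested in that fit. Without WT replicate 3, 8 were again called, all higher, beside 26 called higher of 14114.

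Atf4 mRNA itself was not a DEG, at 216.9, 219.0 and 210.4 TPM in WT and 474.0, 311.4 and 203.7 TPM in TSC1. TSC1 replicate 3 lay below WT while TSC1 replicates 1 and 2 lay above, with a log2 fold change of 0.57 (SE 0.229, edgeR adjusted p = 0.227). Without TSC1 replicate 3 it was 0.82, and Atf4 was then called. Aars, Cars, Nars, Lars, Mars and Gars were each highest in that same TSC1 replicate 3, where Atf4 mRNA was lowest. The TSC1 mice differed little for some of these genes, as for Cars (127.6, 124.6 and 129.7 TPM). A link to the order of Atf4 mRNA was not tested. Tars ran in the order of Atf4, from 113.1 TPM in TSC1 replicate 1 to 88.4 TPM in TSC1 replicate 3.

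The targeted gene and the makeup of the tissue bear on how these values are read. Tsc1 was at 50.2, 32.0 and 28.4 TPM in WT and at 27.1, 21.7 and 22.4 TPM in TSC1, lower in every TSC1 mouse, with a log2 fold change of -0.66 (SE 0.175, edgeR adjusted p = 0.09998, DESeq2 adjusted p = 0.00309). Without WT replicate 1, the highest sample, the log2 fold change was -0.40. Cre removes only part of Tsc1, so the count over the whole gene checks the labels in part. Total expected counts were between 14119365 and 17772865 per sample. For the marker counts that follow, edgeR called 0.859% of all tested genes higher and 0.659% lower, and DESeq2 2.58% and 2.29%. At an unadjusted edgeR p below 0.05, 9.04% of all tested genes were higher and 8.93% lower. In TPM, 12.3% had all TSC1 mice above all WT mice and 10.3% below. Subpallial and striatal markers were lower in TSC1: 4 of 17 were called lower by edgeR (Dlx1, Gad1, Gad2 and Meis2) and 9 by DESeq2, and 16 were lower at an unadjusted p below 0.05. In TPM, 16 of the 17 had all TSC1 mice below all WT mice. Their summed level was 888 to 1054 TPM in WT and 439 to 671 TPM in TSC1. Of 6 choroid plexus markers, edgeR called 0 and DESeq2 called 3 as lower, all 6 had an unadjusted p below 0.05 and lay below WT in TPM, with sums of 1176 to 2477 TPM in WT and 31.8 to 868 TPM in TSC1. Of 8 astrocyte markers, Gfap (1.09) and Aldoc (0.60) were called higher, 4 had a log2 fold change above 0 and 4 below, and 2 were lower at an unadjusted p below 0.05. Gja1 (-0.69, edgeR adjusted p = 0.130) and Slc1a3 (-0.31, edgeR adjusted p = 0.149) had the lowest values, and the sums of 609 to 783 TPM and 686 to 793 TPM overlapped. None of 11 pallial, 7 oligodendrocyte lineage, 8 microglial, 7 endothelial or 5 tested red blood cell markers was called by edgeR. At an unadjusted p below 0.05, 4 pallial markers were higher, 3 microglial, 4 endothelial and 4 red blood cell markers were lower, and of the oligodendrocyte lineage 1 was higher and 2 were lower. DESeq2 called 2 pallial markers higher, 2 oligodendrocyte lineage and 3 endothelial markers lower and none of the rest. Summed levels in WT and TSC1 were 204 to 262 and 189 to 206 TPM for the oligodendrocyte lineage, 152 to 207 and 150 to 229 TPM for microglia, 198 to 261 and 172 to 203 TPM for endothelium, and 1695 to 5567 and 1292 to 1783 TPM for red blood cells. Pallial sums were 1815 to 2153 TPM in WT and 2021 to 2501 TPM in TSC1, and the groups overlapped. The part of tissue makeup in the synthetase values was not tested.

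Transcript lengths, which enter TPM, were nearly equal between the groups for these genes. Of the 39 genes, 26 had 1 transcript in the tables and a fixed length. For the other 13 the lengths of the groups overlapped, and apart from Pars2 they differed by at most 0.252%. The mean length of Pars2 in TSC1 differed from WT by -6.79% (exact permutation test, two-sided, p = 0.2; the smallest p of 3 against 3 is 0.1). RSEM subtracted 45.8 to 49.7 bases for fragment length in WT and 55.1 to 57.6 in TSC1. These ranges did not overlap, so this property of the libraries differed with the groups. After the subtraction, the mean lengths of the groups differed by at most 0.892% apart from Pars2. With these effective lengths as offsets, edgeR called the same 8 cytosolic genes.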

How the data were processed

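Telencephalon RNA of 3 WT and 3 TSC1 mice was sequenced (Truseq RNA prep kit v2, unstranded, paired-end). Reads were trimmed by the authors, mapped with MapSplice2 (mm10) and assigned to RefSeq transcripts by RSEM 1.2.12. The RefSeq release is not given in the sources used here. The deposited expected counts are RSEM's estimates of reads per gene, with no normalization. The deposited TPM values are scaled by effective length within each sample, and FPKM was not used. Samples were grouped by their labels, and each was a distinct library.

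Rounded expected counts entered edgeR 4.0.16 under R 4.3.3 (TMM, filterByExpr, quasi-likelihood test, Benjamini-Hochberg over all genes tested), with DESeq2 1.42.0 and limma 3.58.1 as alternatives. The SE was taken from the fold change and its F statistic. Levels, sums and ratios were described from TPM with numpy 2.4.6 and pandas 2.3.3, and lengths were compared with exact permutation tests in scipy 1.17.1. Scripts were tested on simulated data. The genes, the marker, ATF4 and tRNA lists and the tests were chosen with earlier results of these data known.

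Full values are given for called genes, for uncalled cytosolic genes with an absolute log2 fold change over 0.5, for the scaffold genes, for the mitochondrial genes with the largest rise, the largest fall and the highest level, and for Tsc1, Atf4, Asns and Xpot. Eprs, Iars2, Farsa, Rn45s and the examples from other lists were chosen after their values were seen. Positions are from GENCODE on GRCm38, the assembly of mm10, and promoters from RefSeq GRCm38.p6, of which 1 stretch is not reported here. Alternatives covered normalization, filter, test, pseudocount, effective length, replicate block and each replicate left out. A pair of fits was added after seeing the data.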

Additional observations from a re-analysis of the deposited data

How the results depend on the processing

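All 8 DEGs were called in each of the 9 alternatives on all samples (RLE or upper quartile normalization, no filter, at least 10 counts in every sample, DESeq2, limma on log2(TPM + 1) or log2(TPM + 0.1), effective lengths, replicate block). Leaving out 1 replicate gave between 6 and 9 cytosolic calls, and 6 of the 8 DEGs were kept in all 6 such fits. Calls over all genes were 212 as reported, 640 by DESeq2, 346 without a filter, 551 with the replicate block and, with 1 replicate left out, between 29 (without WT replicate 2) and 799 (without TSC1 replicate 3); every one of these 6 fits moved the total by more than 1.5 times, with 447 calls without WT replicate 1, 35 without WT replicate 3 and 37 without either TSC1 replicate 1 or TSC1 replicate 2. With the replicate block, 10 cytosolic genes were called, Eprs (adjusted p = 0.0214) and Iars (adjusted p = 0.0272) in addition. Deviations of same-numbered samples correlated at r = 0.267, -0.133 and 0.318, and those of differently numbered samples at r from -0.394 to 0.211. Same-numbered samples did not all deviate together, so the numbers were not taken to pair the mice. Replicate 3 of both groups held Y-linked reads, with Ddx3y at 64.25 TPM in WT, 61.97 TPM in TSC1 and 0 in the other samples. The part of sex in these correlations was not tested. The median log2 fold change of cytosolic genes was between 0.263 and 0.370 with 1 replicate left out. With 1 replicate left out, mitochondrial calls were 0 to 1 (Lars2, without TSC1 replicate 3) and ATF4 target calls 8 (without WT replicate 2 or 3) to 20. The 1 call among tRNA genes, without a filter, with at least 10 counts, by DESeq2, by either limma fit and with the block, was Xpot, and leaving out 1 replicate gave 0 to 1. With 1 replicate left out, Eef1e1 ran from -0.00564 (without WT replicate 1) to 0.0854, and Sars2 from -0.148 to 0.0582 (without WT replicate 2) and was 0.00852 without TSC1 replicate 1. Tsc1 passed the threshold by DESeq2 (-0.653) and with the block (-0.627), and was between -0.793 and -0.397 (without WT replicate 1) with 1 replicate left out. Of the 31 synthetase and scaffold genes that were not called, 12 changed sign in some alternative.

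In fits added after seeing the data, leaving out both WT replicate 1 and TSC1 replicate 3 gave 3270 calls over all genes, 11 cytosolic calls, 2 mitochondrial, 23 ATF4 target and 3 tRNA calls, a cytosolic median of 0.222, -0.0293 for Eef1e1 and -0.369 for Tsc1, which then passed. Leaving out replicate 3 of both groups, the libraries with Y-linked reads, gave 434 calls over all genes, 9 cytosolic calls and -0.764 for Tsc1, which passed. The cause of these changes was not tested. Depth limits the mitochondrial genes most, the lowest count being 92.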
